A study of Mus musculus with 16 samples.

Results

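Messenger RNA for the plasma proteins of blood clotting and complement was described in mouse liver. The members were 39 genes named for these systems, 22 of coagulation and 17 of complement, and each one present in the deposited table by gene symbol was taken, whatever its values. All 39 were present among 12618 genes. The series holds 8 liver libraries labelled Cyp7a1 CRISPR and 8 labelled control CRISPR, all from mice on a Western diet for 8 weeks. Cyp7a1 is the rate-limiting enzyme of bile acid synthesis, and a Western diet is rich in fat and sugar. The labels give no sex, age or strain. How the editing was delivered, which cells it reached and what the control guide targets are not stated either. Separate animals are not stated for the libraries, so the p-values below describe variation among libraries, which may be technical in part. The editing itself could not be read from the Cyp7a1 transcript, which stood at 4702 ± 1126 normalized counts in the Cyp7a1-labelled livers and 3587 ± 1252 in the Control livers (SD, n = 8 each; adjusted p = 0.227 by limma). The groups are therefore named by their labels, and every direction below is that of livers labelled Cyp7a1 relative to Control livers.

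Hepatocytes secrete most clotting factors and most complement proteins of plasma. In coagulation, a chain of proteases ends in thrombin, which cuts fibrinogen into fibrin, while inhibitors limit the chain and plasmin dissolves the clot. In complement, lectin, classical and alternative starts meet at C3, and the terminal proteins from C5 to C9 build a pore in the target membrane. Several of these genes, fibrinogen, C3 and factor B among them, are known acute phase genes, whose transcription rises in inflammation.

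The fibrinogen chains and the C8 chains C8a and C8b are shown by the bases before their start sites. Their transcripts are among those whose variation between livers is set side by side below. C8g, the gamma chain of C8, lies on chromosome 2 and is not shown. The fibrinogen genes lie within one cluster on chromosome 3 and C8a and C8b are neighbours on chromosome 4. The sequences are RefSeq's for GRCm38.p6, 5′ to 3′ on the strand of the gene. They span chr3:83025903-83026075 on the plus strand for Fga, chr3:83049864-83050113 on the minus strand for Fgb and chr3:83007474-83007723 on the plus strand for Fgg. For C8a the span is chr4:104876399-104876648 on the minus strand, and for C8b it is chr4:104766067-104766316 on the plus strand. Capitals mark matches to any motif searched, on either strand. The Fga run stops where GENCODE M21 starts the gene, upstream of the RefSeq start.
Fga: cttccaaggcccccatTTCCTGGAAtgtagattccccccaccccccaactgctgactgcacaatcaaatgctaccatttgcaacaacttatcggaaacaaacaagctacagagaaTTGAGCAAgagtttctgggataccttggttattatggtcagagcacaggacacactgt
Fgb: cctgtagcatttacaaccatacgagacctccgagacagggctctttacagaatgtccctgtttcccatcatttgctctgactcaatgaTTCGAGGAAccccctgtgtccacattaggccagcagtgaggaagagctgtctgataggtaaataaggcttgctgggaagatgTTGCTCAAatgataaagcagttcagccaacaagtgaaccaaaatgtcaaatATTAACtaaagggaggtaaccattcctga
Fgg: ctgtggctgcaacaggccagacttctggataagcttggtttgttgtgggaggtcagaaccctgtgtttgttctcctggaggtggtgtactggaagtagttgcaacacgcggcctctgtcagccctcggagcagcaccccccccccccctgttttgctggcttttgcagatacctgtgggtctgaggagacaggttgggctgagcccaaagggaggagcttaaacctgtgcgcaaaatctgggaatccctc
C8a: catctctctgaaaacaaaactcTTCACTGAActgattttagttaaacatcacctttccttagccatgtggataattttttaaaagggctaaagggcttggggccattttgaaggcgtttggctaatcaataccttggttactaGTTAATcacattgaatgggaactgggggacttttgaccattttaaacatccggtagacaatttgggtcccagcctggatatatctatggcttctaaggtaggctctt
C8b: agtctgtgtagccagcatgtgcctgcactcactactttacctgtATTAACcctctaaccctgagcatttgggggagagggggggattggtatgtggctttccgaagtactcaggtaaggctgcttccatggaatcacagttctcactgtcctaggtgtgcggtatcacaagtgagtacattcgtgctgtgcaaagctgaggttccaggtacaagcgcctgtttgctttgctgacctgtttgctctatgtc

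In these windows Fga and Fgb each held the core of the HNF1 site (GTTAAT) and the core of C/EBP (TTGCNNAA). Both also held the letters of a general STAT site (TTCNNNGAA), called the STAT3 letters below. Fgg held none of the letters searched. Other forms of these sites were not searched, so their absence from Fgg is not shown. The HNF1 core of Fga lay 43 to 38 bases before the RefSeq start, beyond the printed run. C8a held the HNF1 core and the STAT3 letters, and C8b held the HNF1 core. HNF1 and C/EBP factors drive many hepatocyte genes, and STAT3 carries the interleukin-6 signal of the acute phase. Over the 250 bases before the start, 30 members had a RefSeq window and gave 31 windows. The HNF1 core was in 8 of them (25.8%) and in 6.43% of 32851 windows of all genes. The C/EBP core was also in 8 (25.8%), against 9.56% of all windows, and the STAT3 letters were in 6 (19.4%), against 7.02%. The letters of the TATA box (TATAAA), at any position, were in 2 member windows (6.45%), against 12.4%. They lay 239 to 234 bases before the start of Hc and, on the opposite strand, 132 to 127 bases before that of Klkb1. The full HNF1 site (GTTAAT, any base, ATTAAC), the inverted repeat of FXR (AGGTCA, any base, TGACCT) and the direct repeat of HNF4 (AGGTCA, any base, AGGTCA) were in none, and each was in at most 0.0335% of all windows. Both strands were searched, and the core is contained in the full HNF1 site. A match is a description of letters and not of a bound site.

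The libraries held 19.6 to 27.4 M recovered reads (M, mega) in Cyp7a1-labelled livers and 13.8 to 25.4 M in Control livers. Coagulation members took 2.37% ± 0.18 of the normalized total in Cyp7a1-labelled livers and 2.45% ± 0.16 in Control livers, and complement members took 1.40% ± 0.13 in Cyp7a1-labelled livers and 1.40% ± 0.12 in Control livers (SD, n = 8 each). Summed markers of stellate cells and fibroblasts ran from 9924 to 17434 normalized counts in Cyp7a1-labelled livers and from 8029 to 18933 in Control livers, and 0 of 11 such markers passed the test. Summed Kupffer cell markers ran from 7723 to 27796 in Cyp7a1-labelled livers and from 8981 to 15752 in Control livers, with 0 of 11 past it. No marker of either list was at 0 in any library. In whole liver, fewer cells of a type and less RNA per cell cannot be told apart.

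Levels per kilobase of exon placed most members among the most abundant liver transcripts. Of 12593 genes ranked, 6 members were in the top 100, 26 in the top 500 and 32 in the top 1000. C3, the component on which all complement starts converge, was the highest member, with 31918 ± 5283 normalized counts per kilobase in Cyp7a1-labelled livers and 30934 ± 4829 in Control livers (SD, n = 8 each), rank 29 of all genes. Fga, the alpha chain of fibrinogen, had 27812 ± 3949 and Fgg, the gamma chain, 26823 ± 4024 per kilobase in Cyp7a1-labelled livers, against 29309 ± 2295 and 29835 ± 4008 in Control livers. These highest neighbours overlapped between livers, so C3, Fga and Fgg had no firm order. With the length of the longest transcript in place of all exon bases, the order was Fgg, Fga, C3.

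Below them came Fgb, the beta chain of fibrinogen, at 20315 normalized counts per kilobase over all 16 livers. Plg, the precursor of the clot-dissolving protease plasmin, had 16015, Kng1, a kininogen of the contact system, 12873 and F2, prothrombin, 8808. Among complement members, Cfi, the protease that cuts C3b, ranked next after C3 with 5473, and C4b, the mouse C4 of the classical and lectin pathways, followed with 5241. Fgb and Plg also overlapped in their ranges over livers, as did Cfi and C4b.

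Over all exon bases, the lowest levels per kilobase were those of C2 with 169, Klkb1 with 76.3 and Cfb with 28.8. C2 is the protease of the classical C3 convertase, Klkb1 is plasma prekallikrein and Cfb is factor B, the protease of the alternative C3 convertase. These were also the 3 members that share exon bases on the same strand with another gene in GENCODE M21. Cfb shares 79.5% of its exon bases with Gm20547, a gene model that spans C2 and Cfb and is not among the genes in the table, and 579 bases are its own. C2 shares 42.8% with the same model. The gene ID listed as Klkb1 is named Gm45753 in GENCODE M21 and shares 93.7% of its exon bases with other genes, Klkb1 itself among them. No source used here gives the rule or strand setting of the authors' counting, so which length applies to these 3 is not known. Per kilobase of unshared exon the levels were 318 for C2, 1215 for Klkb1 and 141 for Cfb. On that scale Cfb was still the lowest member, Masp1 with 217 came next, and Klkb1 was above Serpina10 with 956. Of the others, Masp2 shares 54.9% of its exon bases with Tardbp, Serpinc1 34.4% with Zbtb37 and Plg 11.3% with Slc22a3, all on the opposite strand, and 30 of 39 members share none.

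**Figure D1:**
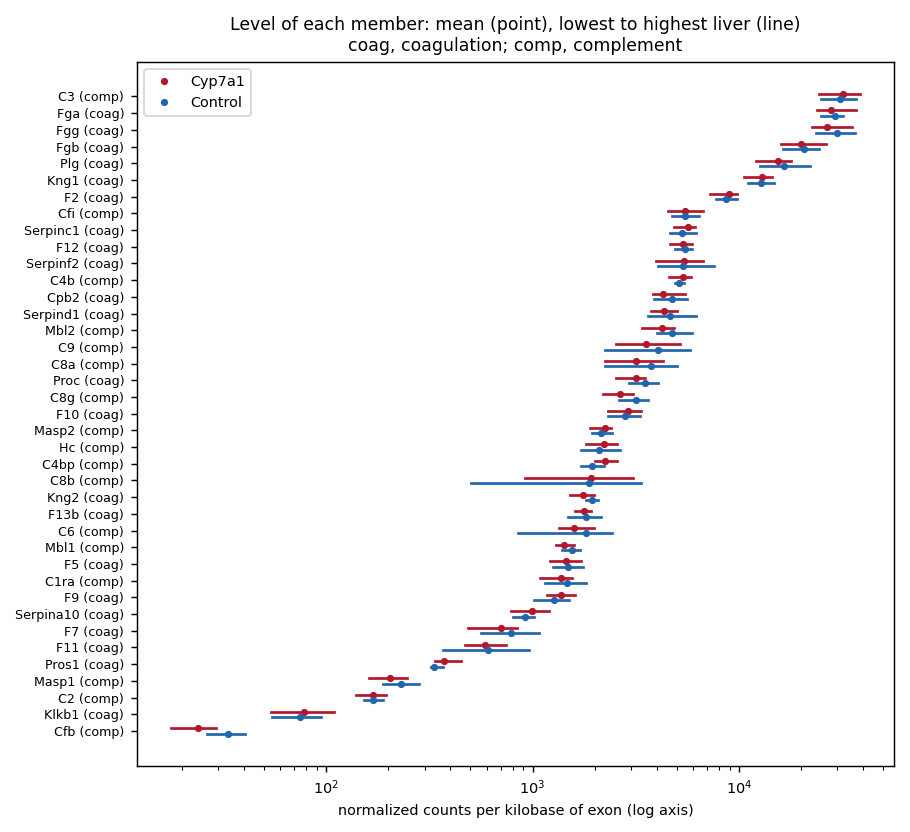
Level of each member in normalized counts per kilobase of exon (log axis), with the mean as a point and the line from the lowest to the highest of 8 livers, Cyp7a1-labelled above Control. C3 and the fibrinogen chains stand at the top, and C2, Klkb1 and Cfb are the lowest over all exon bases.

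The comparison of livers labelled Cyp7a1 with Control livers asked which genes differ when the bile acid enzyme is targeted under this diet. Among the members, 1 of 39 passed the test (2.56%), Cfb, which was lower. Over all 12617 genes tested, 6.12% passed, 3.07% higher and 3.05% lower (limma on log2(value + 1), Benjamini-Hochberg adjusted p under 0.05). By system, 0 of 22 coagulation members and 1 of 17 complement members passed. At an unadjusted p under 0.05 the counts were 2 coagulation and 3 complement members, 12.8% of all 39, against 20.5% of all genes. In 0 of 39 members did the groups fail to overlap, against 1.04% of all genes.

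The median log2 fold change was -0.024 over coagulation members and -0.081 over complement members, against 0.0034 over all genes. The median size of the change, whatever its sign, was 0.087 over all members and 0.094 over all genes. The data also bounded the changes. The 95% interval of the difference lay within 1.5-fold either way for 22 of 22 coagulation and 15 of 17 complement members, the exceptions being Cfb and C8b, against 85.6% of all genes. It lay within 1.25-fold for 16 coagulation and 8 complement members, against 56.2% of all genes, and within 1.2-fold for 8 and 5, against 42.7%. The widths of these windows were chosen after seeing the data.

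**Figure D2:**
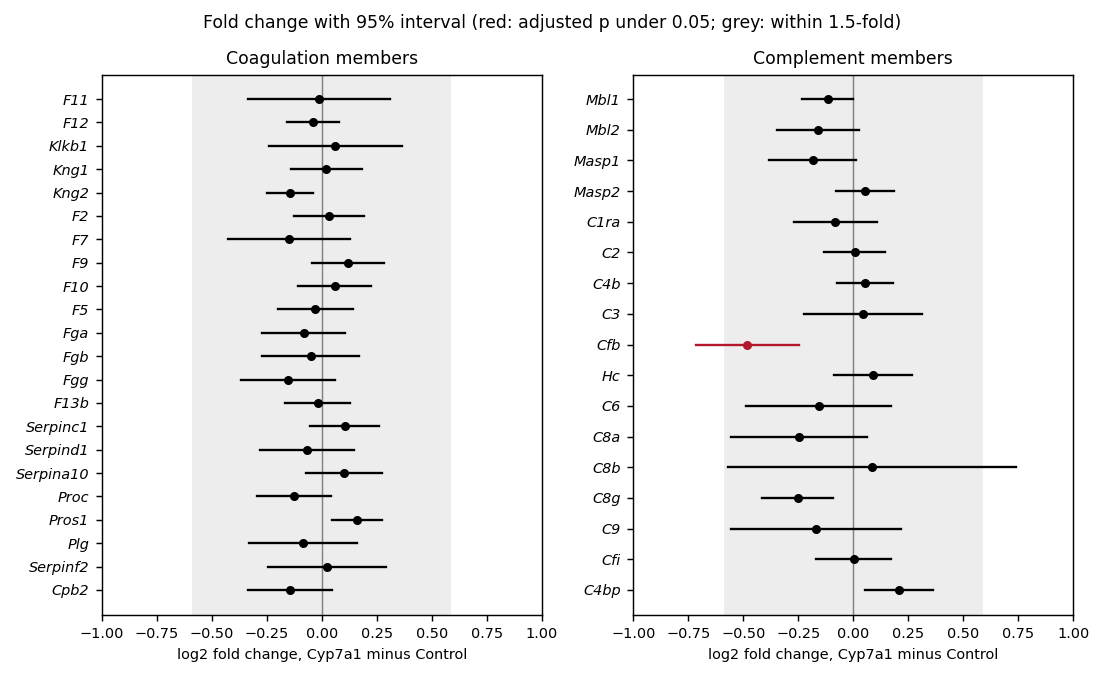
Log2 fold change, Cyp7a1 minus Control, with its 95% interval for each of 22 coagulation and 17 complement members (8 livers a group); grey marks 1.5-fold either way. Only Cfb, in red, passed the test, and C8b has the widest interval.

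The contact factors start clotting on charged surfaces. Of these, F12 (factor XII) differed by -0.040 and Kng1 by 0.021 on the log2 scale, with 95% intervals of -0.16 to 0.076 and -0.14 to 0.18. F11 (factor XI) differed by -0.013 and Klkb1 by 0.062, with wider intervals of -0.34 to 0.31 and -0.24 to 0.36. Klkb1 rested on few reads, 143 to 345 in Cyp7a1-labelled libraries and 106 to 287 in Control libraries.

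Kng2, the second mouse kininogen gene, had its lowest, median and highest value at 4174, 4862 and 5409 normalized counts in Cyp7a1-labelled livers, against 4950, 5170 and 5707 in Control livers. Of the 8 Cyp7a1-labelled livers, 7 lay below the lowest Control liver, and the remaining one lay within the Control range. The difference was -0.14 ± 0.050 (log2, SE; adjusted p = 0.0972 by limma) and did not pass. It did pass with DESeq2 on recovered reads, with an adjusted p of 0.0493, and without the library Cyp7a1 2, with 0.0469. Kng1 and Kng2 are close paralogs, so reads may be split between them.

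The vitamin K-dependent proteases F2, F7, F9 and F10 form the core of the chain, F7 (factor VII) at its start and F10 (factor X) as the enzyme that makes thrombin. None of the 4 passed the test, and the adjusted p-values by limma were all at least 0.425. F9, the haemophilia B factor, had 3743 ± 364 normalized counts in Cyp7a1-labelled livers and 3458 ± 439 in Control livers (SD, n = 8 each), a difference of 0.12 with a 95% interval of -0.045 to 0.28. F7 had 1307 ± 226 in Cyp7a1-labelled livers and 1459 ± 316 in Control livers, a difference of -0.15 with an interval of -0.43 to 0.13. F2 and F10 differed by 0.034 and 0.058.

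The cofactor F5 (factor V), the fibrinogen chains and F13b, the carrier subunit of the clot cross-linking factor XIII, all had differences below 0, and 0 of 5 passed. Those of F5 and F13b were -0.030 and -0.019, and their sign turned with array weights.

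The fibrinogen chains are made in separate transcripts and joined in equal numbers in the secreted protein. Fga had its lowest, median and highest value at 71519, 80726 and 110438 normalized counts in Cyp7a1-labelled livers, against 75269, 90801 and 96390 in Control livers. Fgb had 60918, 75433 and 100189 in Cyp7a1-labelled livers, against 62334, 78375 and 92744 in Control livers. Fgg had 47493, 53948 and 74163 in Cyp7a1-labelled livers, against 49575, 62793 and 75999 in Control livers. For all 3 chains the groups overlapped, and the highest Fga and Fgb values were those of 1 Cyp7a1-labelled liver, Cyp7a1 36. The differences were -0.083 for Fga, -0.051 for Fgb and -0.15 for Fgg (log2), with 95% intervals of -0.27 to 0.11, -0.27 to 0.17 and -0.37 to 0.059.

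The chains varied together from liver to liver in both groups. No background over all gene pairs was measured, so these correlations may not be particular to the chains. The same livers stood at the ends for many members, as given below. Within Cyp7a1-labelled livers Pearson's r was 0.95 for Fga with Fgb, 0.94 for Fga with Fgg and 0.96 for Fgb with Fgg (exact permutation adjusted p = 0.0053, 0.0070 and 0.0030, over 22 tests). Spearman's rho was 0.90, 0.76 and 0.86. Within Control livers r was 0.96, 0.93 and 0.95 for the same pairs (exact permutation adjusted p = 0.000546, 0.00346 and 0.00409), and rho was 1, 0.93 and 0.93. Without the 2 libraries farthest from the median, r lay between 0.82 and 0.94 over both groups. In Cyp7a1-labelled livers the exact permutation p of Fga with Fgg and of Fgb with Fgg was then 0.0611 over 6 libraries, with r of 0.82 and 0.83, while the other 4 were still under 0.05. Here and below, such p-values are unadjusted, and the libraries left out are those farthest from the median of the first gene or score. Their loss narrows the range and leaves 6 of 8 libraries, which tends to lower r and raise p. The raw exact permutation p of Fga with Fgb in Control livers, 2.48e-05, is the smallest that 8 libraries can give. The ratio of Fgg to Fgb was 0.697 at its lowest, 0.744 at the median and 0.780 at its highest in Cyp7a1-labelled livers, against 0.722, 0.795 and 0.834 in Control livers. The ratio of Fga to Fgb was 1.05, 1.09 and 1.23 in Cyp7a1-labelled livers, against 1.04, 1.15 and 1.21 in Control livers. Both ratios overlapped between the groups. These ratios are of normalized counts, not per length, and they were looked at after the chains had been plotted.

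**Figure D3:**
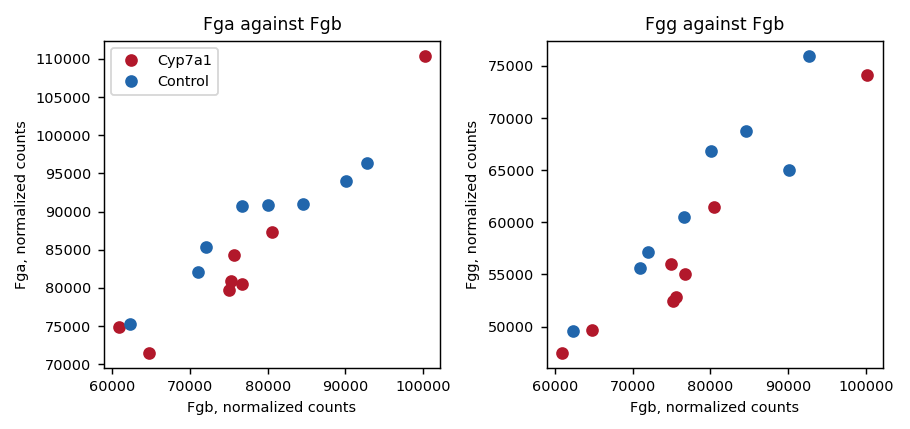
Fga (left) and Fgg (right) against Fgb in normalized counts, 1 point a liver. Both chains vary with Fgb in both groups, with r between 0.95 and 0.96, and Cyp7a1 36 is the point at the far right.

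Haptoglobin (Hp), an acute phase protein, served as an outside comparison. Its r with Fgb was 0.85 in Cyp7a1-labelled livers and -0.87 in Control livers (exact permutation adjusted p = 0.0212 and 0.0149), with rho of 0.60 in Cyp7a1-labelled livers and -0.86 in Control livers. Without the 2 farthest libraries r was 0.38 in Cyp7a1-labelled livers and -0.73 in Control livers and neither passed (exact permutation p = 0.475 and 0.113). The relation in Cyp7a1-labelled livers thus rests on those samples. Its r with C3 was 0.88 in Cyp7a1-labelled livers (exact permutation adjusted p = 0.00982; 0.80 without the 2 farthest libraries) and -0.26 in Control livers (adjusted exact permutation p = 0.548). The difference between the groups in these correlations was not tested. Hp itself had 65606 normalized counts in Cyp7a1-labelled livers and 63724 in Control livers, with an adjusted p of 0.860 by limma.

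The anticoagulants limit the chain. Of these, 0 of 5 passed the test. Pros1, protein S, the cofactor of activated protein C, had its lowest, median and highest value at 1371, 1489 and 1832 normalized counts in Cyp7a1-labelled livers, against 1317, 1352 and 1505 in Control livers. Every Cyp7a1-labelled liver lay above the Control median, 3 of 8 lay above the highest Control liver, and the groups overlapped. The difference was 0.16 ± 0.054 (log2, SE; adjusted p = 0.0907 by limma) and did not pass, whereas DESeq2 on recovered reads gave an adjusted p of 0.0493. Serpinc1 (antithrombin) had 48283 ± 3613 normalized counts in Cyp7a1-labelled livers and 45028 ± 4663 in Control livers, a difference of 0.10 with an interval of -0.052 to 0.26. Serpina10, the protein Z-dependent inhibitor, differed by 0.10, Serpind1 (heparin cofactor II) by -0.068 and Proc (protein C) by -0.13. For Proc, 8 of 8 Cyp7a1-labelled livers lay below the Control median, with an adjusted p of 0.408 by limma.

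The fibrinolysis members had 0 of 3 past the test. Plg differed by -0.087, Serpinf2 (the plasmin inhibitor alpha2-antiplasmin) by 0.023 and Cpb2, a carboxypeptidase that slows fibrinolysis, by -0.14. Their 95% intervals were -0.33 to 0.16, -0.25 to 0.29 and -0.33 to 0.045.

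The lectin pathway begins with the mannose-binding lectins Mbl1 and Mbl2, which carry the proteases Masp1 and Masp2. None of the 4 passed. Mbl1 had 2240 ± 171 normalized counts in Cyp7a1-labelled livers and 2427 ± 183 in Control livers (SD, n = 8 each), a difference of -0.12 with an interval of -0.23 to 0.0010. Mbl2 differed by -0.16, Masp1 by -0.18 and Masp2 by 0.055. The correlation of Mbl1 with Mbl2 did not pass in either group, with r of 0.64 in Cyp7a1-labelled livers and 0.34 in Control livers (exact permutation adjusted p = 0.129 and 0.445).

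The classical pathway had 0 of 3 members past the test. C1ra, a C1r protease gene of the mouse, differed by -0.081, C2 by 0.0060 and C4b by 0.053, with intervals of -0.27 to 0.11, -0.13 to 0.14 and -0.072 to 0.18. C4b had 30436 ± 2601 normalized counts in Cyp7a1-labelled livers and 29253 ± 1156 in Control livers (SD, n = 8 each), the smallest relative spread of any member between Control livers. C4b and C1ra have near-identical copies in the mouse genome, so their reads may be split. C4a, the copy of C4b, had 757 normalized counts in Cyp7a1-labelled livers and 1375 in Control livers, a difference of -0.91 ± 0.35 (log2, SE; adjusted p = 0.143 by limma).

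C3 itself had a lowest, median and highest value of 126210, 162789 and 198319 normalized counts in Cyp7a1-labelled livers, against 128877, 158648 and 189783 in Control livers. The groups overlapped almost entirely. The difference was 0.043 with a 95% interval of -0.22 to 0.31.

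Cfb, factor B, which pairs with C3b in the alternative pathway, was the member that fell. Its lowest, median and highest value were 50.2, 67.4 and 82.9 normalized counts in Cyp7a1-labelled livers, against 75.3, 97.0 and 114 in Control livers. Of the 8 Cyp7a1-labelled livers, 8 lay below the Control median and 6 below the lowest Control liver, while the other two overlapped the lower Control livers. The means were 67.9 ± 11 in Cyp7a1-labelled livers and 94.9 ± 13 in Control livers (SD, n = 8 each). The log2 difference was -0.48 ± 0.11 (SE; 95% interval -0.72 to -0.25; adjusted p = 0.0167 by limma), a change of -28.4%. The two-sided exact permutation p over all assignments of the libraries to groups was 0.00109. The call rested on 57 to 95 reads per library in Cyp7a1-labelled livers and 49 to 148 in Control livers, and most exon bases of Cfb are shared as given above. C2, the neighbour with the same shared gene model, had 655 ± 66.0 normalized counts in Cyp7a1-labelled livers and 652 ± 53.3 in Control livers, and its correlation with Cfb did not pass in either group (r = 0.25 in Cyp7a1-labelled and -0.43 in Control livers; exact permutation adjusted p = 0.558 and 0.336).

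The terminal pathway members Hc, C6, C8a, C8b, C8g and C9 encode the pore, Hc being the mouse C5. None of the 6 passed. C8g, the lipocalin-like gamma chain of C8, had its lowest, median and highest value at 3276, 4070 and 4560 normalized counts in Cyp7a1-labelled livers, against 3937, 4608 and 5440 in Control livers. All 8 Cyp7a1-labelled livers lay below the Control median, 3 lay below the lowest Control liver, and the groups overlapped. The difference was -0.25 ± 0.077 (log2, SE; 95% interval -0.41 to -0.090; adjusted p = 0.0602 by limma). It passed with quantile normalization, equal totals, array weights and DESeq2, with adjusted p-values of 0.0122, 0.00891, 0.0499 and 0.0255, and without the library Cyp7a1 17 or Control 7.

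The other chains of C8 had differences of -0.25 for C8a and 0.086 for C8b, with intervals of -0.56 to 0.064 and -0.57 to 0.74. The interval of C8b reached beyond 1.5-fold on its upper side. C9, the subunit that forms the ring of the pore, differed by -0.17, C6 by -0.16 and Hc by 0.089.

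The fluid-phase regulators are Cfi and C4bp, the C4b-binding protein that serves as its cofactor. Cfi differed by 0.0020 with an interval of -0.17 to 0.17. C4bp had its lowest, median and highest value at 13540, 14947 and 17280 normalized counts in Cyp7a1-labelled livers, against 11575, 12919 and 14876 in Control livers. Every Cyp7a1-labelled liver lay above the Control median and 4 lay above the highest Control liver. The difference was 0.21 ± 0.073 (log2, SE; adjusted p = 0.104 by limma) and did not pass.

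**Figure D4:**
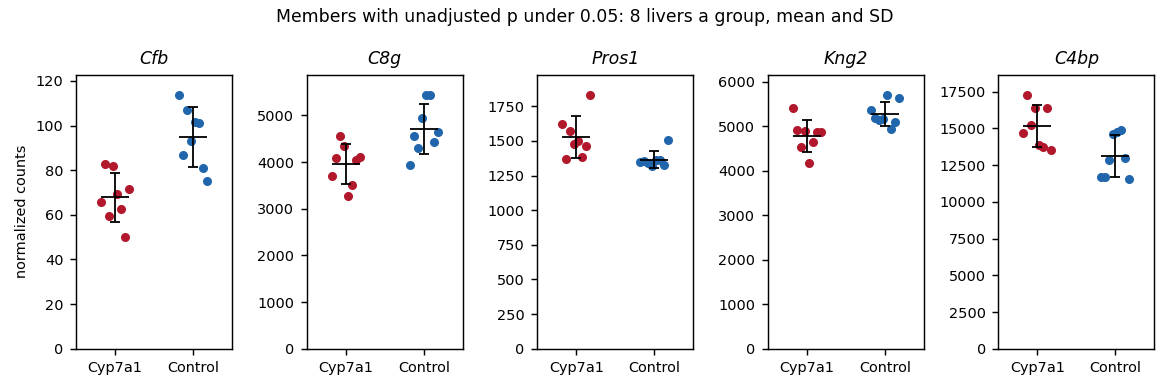
Normalized counts of the 5 members with an unadjusted p under 0.05, with 1 point a liver and the mean and SD in black. Cyp7a1-labelled livers are lower for Cfb, C8g and Kng2 and higher for Pros1 and C4bp on average, the groups overlap in all 5, and Cfb is the member past the adjusted threshold.

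Variation between livers of one group was greater than the differences between groups for several members. The SD on the log2 scale was largest for C8b, 0.58 in Cyp7a1-labelled livers and 0.80 in Control livers, against medians over all genes of 0.16 in Cyp7a1-labelled livers and 0.17 in Control livers. C8b had 2346, 4787 and 7804 normalized counts as lowest, median and highest in Cyp7a1-labelled livers, and 1283, 4627 and 8518 in Control livers. The highest liver held 3.33 times the lowest in the Cyp7a1-labelled group and 6.64 times in the Control group. Next in complement came C9, with SDs of 0.34 in Cyp7a1-labelled and 0.47 in Control livers, and C6, with 0.20 in Cyp7a1-labelled and 0.45 in Control livers. C8a, with 0.31 in Cyp7a1-labelled and 0.34 in Control livers, stood just behind C6. In coagulation the widest were F11 (0.27 in Cyp7a1-labelled, 0.40 in Control livers), Klkb1 (0.30 in Cyp7a1-labelled, 0.32 in Control livers) and F7 (0.27 in Cyp7a1-labelled, 0.31 in Control livers). C9 had 6513, 8329 and 13306 normalized counts as lowest, median and highest in Cyp7a1-labelled livers, against 5716, 9677 and 14859 in Control livers. F11 had 1058, 1278 and 1669 in Cyp7a1-labelled livers, against 825, 1375 and 2161 in Control livers. For both genes the Control livers spread beyond the Cyp7a1-labelled livers at both ends.

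The same livers stood at the ends for many members. Control 7 was the lowest Control liver for 25 of 39 members and Control 20 the highest for 27. Among Cyp7a1-labelled livers, Cyp7a1 24 was the lowest for 25 members, while Cyp7a1 36 was the highest for 19 and Cyp7a1 5 for 11. How often each liver stood at an end over all genes was not counted, so these counts may not be particular to the members. Control 20 also had the highest normalized total and summed hepatocyte markers of the Control livers. Cyp7a1 24 had the lowest of both in its group, whereas among Control livers Control 13, not Control 7, had the lowest of both. For C8b, C6, C9 and F11 the lowest Control value was that of Control 7 in each case. C8a and C8b had an r of 0.90 in Cyp7a1-labelled livers and 0.90 in Control livers (exact permutation adjusted p = 0.0113 and 0.0264). Without Control 7 and Control 20 the Control value was -0.16, so that relation rests on those samples, and in Cyp7a1-labelled livers it was 0.78 without the 2 farthest libraries (exact permutation p = 0.0931), no longer passing. C8g passed with C8b in Cyp7a1-labelled livers (r = 0.79; exact permutation adjusted p = 0.0358) and with C8a in Control livers (r = 0.79; exact permutation adjusted p = 0.0276). Without the 2 farthest libraries r was 0.72 for C8g with C8b (exact permutation p = 0.0986) and 0.34 for C8g with C8a (exact permutation p = 0.543), and the relation with C8a rests on those samples. Kng1 and Kng2 had an r of 0.71 in Cyp7a1-labelled livers and 0.56 in Control livers (exact permutation adjusted p = 0.0859 and 0.190), which did not pass.

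The 3 widest members of each system were set beside marker scores, which are means over a list of log2 values centred per gene, in 36 tests chosen after seeing the data. The 6 members share the same libraries and are not separate observations, and the share of all genes with such an r was not counted. The hepatocyte and stellate scores are not separate either. Among Control livers, Control 20 had the highest hepatocyte and lowest stellate score (0.24 and -0.86). Control 13 had the reverse (-0.34 and 0.55). In Control livers all 6 had a negative r with the score of stellate cells and fibroblasts, from -0.93 to -0.55, and 2 passed. These were F11 with -0.93 and F7 with -0.90 (both exact permutation adjusted p = 0.0266; rho -0.90 and -0.88). Without the 2 farthest libraries F11 kept -0.87 (exact permutation p = 0.0125), while F7 had -0.77 (exact permutation p = 0.0667) and no longer passed. In Cyp7a1-labelled livers r was negative for 5 of 6 and 0 passed. With the hepatocyte score, r was positive for 6 of 6 in Control livers and 5 of 6 in Cyp7a1-labelled livers. There F7 passed in both, with 0.93 in Cyp7a1-labelled livers and 0.86 in Control livers (exact permutation adjusted p = 0.0266 and 0.0452), and F11 in Control livers with 0.88 (exact permutation adjusted p = 0.0266). Without the 2 farthest libraries, F7 no longer passed in either group (r = 0.73 in Cyp7a1-labelled and 0.67 in Control livers; exact permutation p = 0.0903 and 0.143), and F11 had 0.78 (exact permutation p = 0.0278). With the Kupffer cell score 1 passed, Klkb1 in Control livers with -0.77 (exact permutation adjusted p = 0.0452; -0.70 and exact permutation p = 0.132 without 2). The part of cell makeup in these spreads was not tested. With the stellate and fibroblast score as a covariate, added after seeing the data, Cfb, C8g and C4bp passed, with limma adjusted p-values of 0.0103, 0.00695 and 0.0222, while 577 genes were higher and 569 lower over all.

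**Figure D5:**
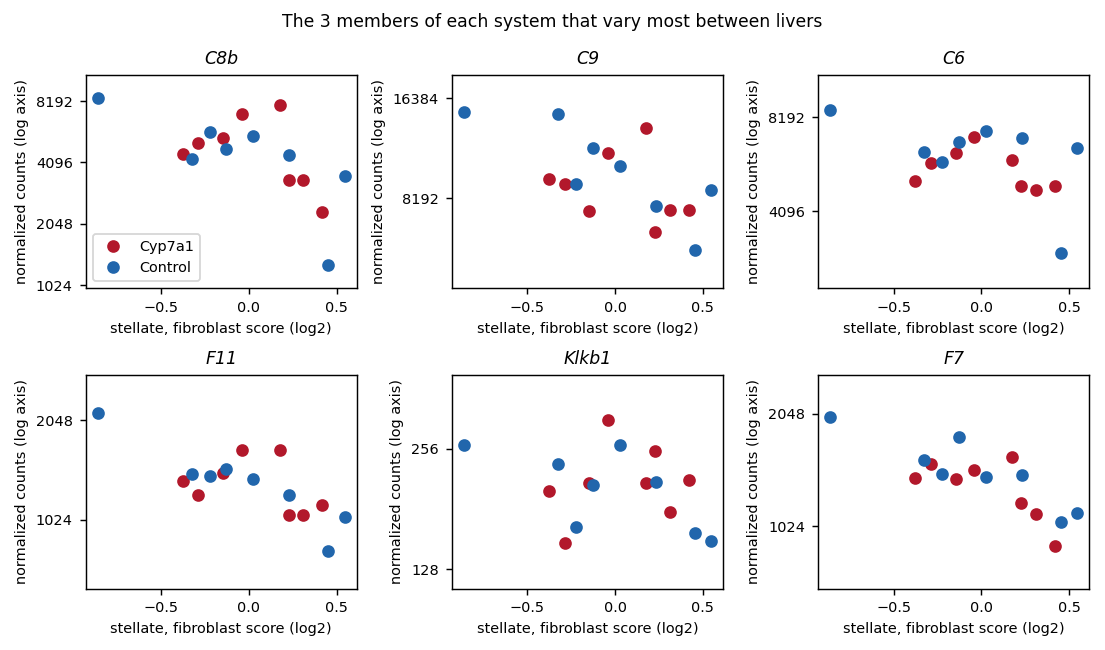
Normalized counts (log axis) of the 3 members of each system that varied most between livers, against the score of stellate cell and fibroblast markers on the log2 scale, 1 point a liver. In Control livers all 6 slope downward with r from -0.93 to -0.55, and Control 20 is the point at the far left.

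Other genes of both systems were counted from lists that do not overlap the members. Over all genes 6.12% passed. Of 15 other coagulation and fibrinolysis genes of liver, 0 passed. The smallest p-values there were those of Hgfac, the activator of hepatocyte growth factor, with a difference of 0.20, and Itih4, an inter-alpha-trypsin inhibitor chain, with -0.19 (log2; adjusted p = 0.156 and 0.335 by limma). The vitamin K cycle and clotting factor secretion had 0 of 7 past the test, among them Ggcx, the gamma-carboxylase, with -0.22 and Lman1, a cargo receptor for factors V and VIII, with -0.13 (adjusted p = 0.134 and 0.254 by limma). Of 20 complement and coagulation genes of other cells, 0 passed. Vsig4, the complement receptor of Kupffer cells, differed by 0.20, and F3, tissue factor, by -0.27.

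Of 19 other liver complement genes, 2 were lower and 0 higher. That is 10.5% of a short list, against 6.12% of all genes, 3.05% lower. C1rl, a C1r-like protease, had 3099 normalized counts in Cyp7a1-labelled livers and 3695 in Control livers, a difference of -0.25 ± 0.049 (log2, SE; adjusted p = 0.00658 by limma). Its groups did not overlap, as for 1.04% of all genes. Clu, clusterin, which binds terminal complement complexes, had 34259 normalized counts in Cyp7a1-labelled livers and 40379 in Control livers, a difference of -0.24 ± 0.061 (log2, SE; adjusted p = 0.0289 by limma). The list's median log2 fold change was -0.015.

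Among 20 transcription factors and cofactors of liver, 1 was lower and 1 higher. That is 10% of a short list, against 6.12% of all genes. Whether they act on the members was not tested. Nr0b2, SHP, a corepressor induced by the bile acid receptor FXR, had 152 normalized counts in Cyp7a1-labelled livers and 568 in Control livers, a log2 difference of -1.95 ± 0.21 (SE; adjusted p = 4.25e-05 by limma). Foxa3, a liver forkhead factor, had 962 in Cyp7a1-labelled livers and 659 in Control livers, a difference of 0.55 (adjusted p = 0.0285 by limma). Among 20 acute phase genes, Apcs, the serum amyloid P component, was higher and Orm3, an orosomucoid, lower, with log2 differences of 0.70 and -0.92 (adjusted p = 0.0151 and 0.0106 by limma). They also make 10% of a short list, against 6.12% of all genes. The median of the acute phase list was 0.16, against 0.0034 over all genes.

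The markers of cell types and zones that passed came to 18.2% of the hepatocyte, 16.7% of the cholangiocyte and 11.1% of the periportal list. Each share is 1 or 2 genes of a short list, against 6.12% of all genes. At an unadjusted p under 0.05 by limma, the share was 44.4% of periportal, 55.6% of pericentral and 27.3% of sinusoidal endothelial markers. It was 0% of Kupffer and of stellate cell markers, against 20.5% of all genes. Of 11 hepatocyte markers, Tat was higher (0.84) and Fabp1 lower (-0.40), and of 6 cholangiocyte markers Krt23 was lower (-2.15). Of 9 periportal markers, Aldh1b1 was higher (0.65). In the pericentral list 0 of 9 passed, Axin2 and Lect2 coming nearest with -0.31 and -0.30 (adjusted p = 0.0570 and 0.0630 by limma). Its markers with an unadjusted p under 0.05 went both ways. Axin2, Lect2 and Rgn (-0.28) were lower, while Slc1a2 (0.26) and Oat (0.48) were higher. Neither the list of sinusoidal endothelium (0 of 11; Lyve1 0.46, Kdr -0.18) nor those of Kupffer cells (Vsig4 0.20, Clec4f 0.12) and stellate cells (Dcn 0.11, Rgs5 0.20) had a member past the test. The same held for neutrophils and lymphocytes (0 of 4; Cd79b 0.53, Ighm 0.39) and for platelets (0 of 2; Itgb3 0.48, Itga2b 0.0075). Values were absent for 6 of 10 listed neutrophil and lymphocyte markers, S100a8 and Cd3e among them. They were also absent for 4 of 6 listed platelet markers, Pf4 and Ppbp among them, so these lists were only partly read.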

How the data were processed

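Liver mRNA was sequenced from total RNA of flash-frozen tissue, per the labels' protocols. The deposited table holds the authors' normalized counts, a signal for each gene in each library, and 0 columns of samples were left unmapped. The build mm10 and the tools STAR 2.7.11a, Trim Galore 0.6.10, featureCounts, R 3.6.3 and DESeq2 are named per the submitters' processing notes, without role or order. For annotation and strand setting: not given in the sources used here.

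Values were whole multiples of a step, 1 read, for 99.94% to 99.99% of genes (tolerance 0.05 reads). The smallest value was 1 read in 6 libraries and 2 or 3 reads in 10, and steps were fitted from low values in all 16 libraries. Count tests rest on that fit and are alternatives. Recovered depth was 13.8 to 27.4 M reads.

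limma 3.58.1 (R 4.3.3; lmFit, eBayes with trend) compared log2(value + 1), Cyp7a1 minus Control, over 12617 genes, threshold 0.05; this scale understates changes of low genes. Ccne2 was left out because 1 cell held text. The minimum mean of 10 removed no gene, the lowest being 13.3. Correlations used exact permutation of pairings. In simulated data, where every gene was given the median spread of the real genes, limma recovered 95% of 100 genes changed 1.5-fold. Of its calls there, with those for genes changed 2-fold included, 2.99% were false. Recovery at the spread or read number of single members, such as C8b or Cfb, was not tested. Nor was recovery of changes under 1.5-fold. Exon lengths and overlaps are GENCODE M21's; promoters are RefSeq's, GRCm38.p6. Python 3.11.15, scipy 1.17.1, edgeR 4.0.16 and DESeq2 1.42.0 were also used. Members and lists were chosen with earlier results of these data known. Every member is named. Those past the threshold, and the 3 highest and 3 widest of each system, get values, as do members that passed in another list, or the 2 with the smallest p where none passed. The rule's values for other members with an unadjusted p under 0.05 were added after seeing them.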

Additional observations from a re-analysis of the deposited data

Results flagged for a closer look

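In 7 of 78 groups of 8 livers, 1 library stood apart from the others by its gap relative to the group's range, where chance gives about 1 in 20 groups, or 3.9. In the Cyp7a1-labelled group, Cyp7a1 36 was highest for Fga with 110438 normalized counts, against 71519 to 87380 in the other livers of its group, and for Cpb2 with 8973, against 6248 to 7405. Cyp7a1 24 was lowest for Proc with 6277, against 7594 to 8700. In the Control group, Control 38, the library with the fewest reads, was highest for Pros1 with 1505, against 1317 to 1363. Control 7 was lowest for C6 with 3030, against 5899 to 8613, for C8a with 8134, against 12658 to 18271, and for C8b with 1283, against 3527 to 8518.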

How the results depend on the processing

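Cfb passed in every alternative run for it, and edgeR on recovered reads called the same member and no other. Counts of lower complement members were 2 with quantile normalization, equal totals, array weights, DESeq2 and the marker covariate, each with C8g beside Cfb, against 1; higher complement members were 1 with the covariate, C4bp. DESeq2 called 1 higher coagulation member, Pros1, and 1 lower, Kng2. Leaving out 1 library gave 1 to 2 lower complement members, C8g passing without Cyp7a1 17 or Control 7, and 0 to 1 lower coagulation members, Kng2 passing without Cyp7a1 2. Over all genes DESeq2 gave 548 higher and 573 lower, equal totals 263 and 372, and without Cyp7a1 28 the counts were 230 and 245.

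Signs turned for members near 0. C2 was -0.00048 with quantile normalization and -0.0013 with equal totals, and Cfi -0.0053 with equal totals. Array weights gave 0.055 for F11, 0.023 for F13b and 0.0078 for F5, and the covariate 0.035 for F11 and 0.0031 for F13b. With 1 library left out, the ranges were -0.024 to 0.044 for C2, -0.16 to 0.23 for C8b, -0.041 to 0.039 for Cfi, -0.11 to 0.089 for F11 and -0.060 to 0.017 for F13b. They were -0.066 to 0.0074 for F5, -0.012 to 0.13 for Klkb1, -0.0083 to 0.062 for Kng1 and -0.030 to 0.098 for Serpinf2. The causes were not tested. The C8a and C8b correlation in Control livers was -0.16 without 2 libraries, and of 22 correlations 8 others lost an unadjusted exact permutation p under 0.05 and 1 gained one. Cfb has few reads, so depth limits its precision. No paired analysis was possible because the groups share no replicate numbers.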
